A study of Mus musculus with 8 samples.

Results

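The genes described here are 10 genes of fatty acid uptake, storage in lipid droplets and use: Dgat1, Dgat2, Plin2, Pparg, Cpt1a, Cd36, Fabp5, Pnpla2, Acsl4 and Hilpda. They were taken by symbol, and each has 1 row among the 22075 genes of the deposited expression table. Of the 10, 9 passed the filter on low values used for testing, and Cd36 did not.

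RNA was measured in cultured group 2 innate lymphoid cells (ILC2s), lymphocytes of tissues such as the lung that lack antigen receptors and make type 2 cytokines. They were purified from lungs of C57BL/6 mice briefly exposed to papain, a protease that provokes airway inflammation, and all were first expanded with IL-2 at 10 ng/ml over about 5 days. STAT3-KO cells were Stat3 fl/fl with Vav-iCre, a recombinase transgene active in blood cells generally, and WT cells were Stat3 fl/fl without it, so the loss of STAT3 and the presence of the transgene cannot be told apart. The 4 groups of 2 libraries each were STAT3-KO with IL-33, WT with IL-33, STAT3-KO control and WT control. IL-33 groups received 10 ng/ml of this alarmin, a cytokine released by damaged epithelium, for 2 more days, and the labels do not describe the control medium in that time. They do not say either whether the replicates of a group came from separate mice or cultures, so the p values measure the spread between these libraries, which may be technical.

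Fatty acids enter cells in part through the membrane protein CD36, are carried in the cytosol by binding proteins such as FABP5, and are activated to acyl-CoA by synthetases such as ACSL4. Acyl-CoA is either joined to diacylglycerol by DGAT1 or DGAT2, which makes triglyceride for lipid droplets coated by PLIN2, or passed by CPT1A into mitochondria for oxidation. PNPLA2 (ATGL) begins the release of fatty acids from droplets, HILPDA inhibits PNPLA2, and PPARγ is a nuclear receptor that binds fatty acids and switches on genes of uptake and storage. Lung ILC2s are known to take up fatty acids and to store them in droplets when activated.

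The promoters of 4 of these genes are shown because these genes were lower in STAT3-KO than in WT cells once IL-33 was present, as described below. Each is the 250 bases before the annotated transcription start, 5′ to 3′ on the strand of the gene, from RefSeq on GRCm38.p6. Plin2 lies at chr4:86670060-86670309 on the minus strand, Acsl4 at chrX:142390536-142390785 on the minus strand, Cpt1a at chr19:3323051-3323300 on the plus strand, and the first of 2 Hilpda windows at chr6:29272238-29272487 on the plus strand. Capitals would mark a match to a searched motif, and these 4 windows hold none.
Plin2: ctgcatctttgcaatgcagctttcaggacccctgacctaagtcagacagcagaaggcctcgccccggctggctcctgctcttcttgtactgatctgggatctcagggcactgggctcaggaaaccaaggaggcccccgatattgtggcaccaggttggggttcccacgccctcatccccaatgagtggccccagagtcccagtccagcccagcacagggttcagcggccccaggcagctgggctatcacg
Acsl4: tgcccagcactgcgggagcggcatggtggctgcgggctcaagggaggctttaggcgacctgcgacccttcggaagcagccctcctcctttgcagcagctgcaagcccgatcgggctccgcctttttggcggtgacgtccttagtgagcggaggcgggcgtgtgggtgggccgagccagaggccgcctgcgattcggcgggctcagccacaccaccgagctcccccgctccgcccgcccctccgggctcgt
Cpt1a: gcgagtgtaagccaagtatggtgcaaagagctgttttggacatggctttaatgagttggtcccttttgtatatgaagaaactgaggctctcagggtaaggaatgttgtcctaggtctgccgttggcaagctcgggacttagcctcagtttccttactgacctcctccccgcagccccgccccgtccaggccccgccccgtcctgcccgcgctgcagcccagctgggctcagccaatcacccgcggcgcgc
Hilpda: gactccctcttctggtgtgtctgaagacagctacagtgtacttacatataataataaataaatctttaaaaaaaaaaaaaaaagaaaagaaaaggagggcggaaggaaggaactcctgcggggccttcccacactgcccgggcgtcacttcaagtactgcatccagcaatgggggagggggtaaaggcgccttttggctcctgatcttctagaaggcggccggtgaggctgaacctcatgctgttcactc

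Motifs were searched on both strands in the 10 RefSeq windows of the 7 genes that have one. TTCNNNGAA, the spaced repeat bound by STAT factors, occurred in 0 of the 10 windows, and 7.02% of all 32851 mouse promoter windows hold it. The PPAR-RXR direct repeat, 2 copies of AGGTCA with any 1 base between them, occurred in 0 of the 10, and 0.0335% of all windows hold it. ACGTG, the core of the hypoxia response element (16.6% of all windows), and TGANTCA, the AP-1 site (6.75%), occurred once each, both in the second Hilpda window. Those matches are printed in capitals in 30 bases each, at chr6:29272571-29272600 and chr6:29272487-29272516, and begin 43 and 128 bases before the second Hilpda start.
Hilpda ACGTG: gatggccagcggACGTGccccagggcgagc
Hilpda TGANTCA: ctggactgcagTGAATCAaccgcgagccgc
The AP-1 match does not overlap the hypoxia element core, and a match in letters is a description, not a bound site. Dgat1, Dgat2 and Fabp5 were not searched.

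Values are in FPKM, a measure of reads corrected for gene length and for library depth, as the authors deposited them. Depth was 15843685 to 19905817 reads per library, so that 1 kb of gene with 3 reads has 0.151 to 0.189 FPKM, a limit that covers counting error only. Stat3 itself measured 8.03 and 9.69 FPKM in STAT3-KO cells with IL-33 and 49 and 55.3 in WT cells with IL-33, and 15.3 and 16.0 in STAT3-KO control and 41.7 and 50.7 in WT control. All 14 ILC2 markers had a row, and 13 or 14 of them reached 1 FPKM in each group. The 8 T cell markers summed to 5.23 to 7.65 FPKM in STAT3-KO with IL-33 and 11.5 to 13.8 in WT with IL-33, and to 14.6 to 16.1 in STAT3-KO control and 23.0 to 24.0 in WT control. Among them Cd3e was at most 0.259 and Cd3d at most 0.332 FPKM in every library. Cd3g reached 9.15 and was not lower in STAT3-KO with IL-33, averaging 5.6 there and 4.2 in WT with IL-33. Lck averaged 0.583 in STAT3-KO with IL-33, 7.74 in WT with IL-33, 6.15 in STAT3-KO control and 16.5 in WT control. Alveolar epithelial markers, 6 of 10 with a row, summed to 2.42 to 2.80 FPKM in STAT3-KO with IL-33 and 7.20 to 7.36 in WT with IL-33, and to 6.73 to 9.09 in STAT3-KO control and 5.01 to 11.7 in WT control. Of these, Epcam averaged 0.386 in STAT3-KO with IL-33, 4.41 in WT with IL-33, 6.61 in STAT3-KO control and 7.13 in WT control. With IL-33, Abca3 averaged 0.323 in STAT3-KO and 1.18 in WT, Krt18 1.36 and 1.35, and Ager 0.542 and 0.115. Hopx was at most 0.203 and Sftpb at most 0.125 FPKM in every library. Of 7 adipocyte markers 5 had a row and summed to at most 0.398 FPKM in every library. Macrophage markers, 5 of 17 with a row, summed to 3.34 to 6.89 FPKM in STAT3-KO and 6.04 to 6.97 in WT with IL-33. In control they summed to 0.595 to 2.66 in STAT3-KO and 0.312 to 1.3 in WT. Endothelial markers, 2 of 8 with a row, were nearly all Pecam1. Pecam1 averaged 23.9 in STAT3-KO with IL-33, 24.2 in WT with IL-33, 18.7 in STAT3-KO control and 15.8 in WT control. Stromal markers, 5 of 8 with a row, summed to at most 2.49 FPKM. Of 8 mast cell and basophil markers 4 had a row, and these differed between the groups. They summed to 7.72 to 8.25 FPKM in STAT3-KO with IL-33 and 136.0 to 164.5 in WT with IL-33. In control they summed to 142.4 to 171.2 in STAT3-KO and 330.2 to 337.4 in WT. The sums hide opposite directions in WT. Mcpt8 averaged 103.1 FPKM in WT with IL-33 and 0.0632 in WT control, and 0.123 in STAT3-KO with IL-33. Cpa3 averaged 38.2 in WT with IL-33 and 312.4 in WT control, and Kit 8.6 and 21.1. In STAT3-KO with IL-33, Cpa3 averaged 7.51 and Kit 0.318. ILC2 markers summed to 3841.3 to 4201.3 FPKM in STAT3-KO with IL-33 and 10565.8 to 11345.9 in WT with IL-33, mainly through Il5 and Il13. In control they summed to 3671.8 to 3694.0 in STAT3-KO and 3756.3 to 3889.0 in WT. Il1rl1 (85.5 and 359.8), Klrg1 (288.8 and 913.7), Id2 (622.0 and 1447.8) and Thy1 (2.46 and 34.9) were also lower in STAT3-KO than in WT with IL-33. So were Gata3 (172.9 and 285.0), Il7r (74.0 and 177.0), Il2ra (345.4 and 969.6), Ptprc (23.5 and 60.4) and Il17rb (0.351 and 2.41). Areg was near equal (696.7 and 703.5), and Icos (110.3 and 93.5) and Rora (6.4 and 6.32) were not lower. The part of these marker differences in the results on lipid genes was not tested, and in bulk RNA fewer cells of a type and less RNA per cell cannot be told apart.

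In WT cells with IL-33, Pparg (313.8 ± 30.1 FPKM) and Plin2 (313.2 ± 10.1) were the most abundant of the 10 genes and overlapped in their libraries (SD, n = 2, here and below). Acsl4 (72.8 ± 6.40), Fabp5 (71.3 ± 2.25) and Dgat1 (69.2 ± 2.72) followed and also overlapped. Pnpla2 (44.2 ± 1.5) came next, above Hilpda (36.3 ± 4.94), whose libraries overlapped those of Cpt1a (32.6 ± 1.42). Dgat2 (20.7 ± 0.326) and Cd36, at 0.0171 FPKM or less, were the lowest. In WT control cells Pparg (131.1 ± 0.579) and Plin2 (106.3 ± 1.77) again led, followed by Pnpla2 (51.3 ± 1.98) and Cpt1a (47.0 ± 7.55), which overlapped. Dgat1 (20.4 ± 0.0891), Hilpda (17.7 ± 1.09), Fabp5 (13.9 ± 0.663) and Acsl4 (11.6 ± 6.83) were lower, the last pair overlapping. Dgat2 averaged 0.222 ± 0.15 FPKM there.

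**Figure D1:**
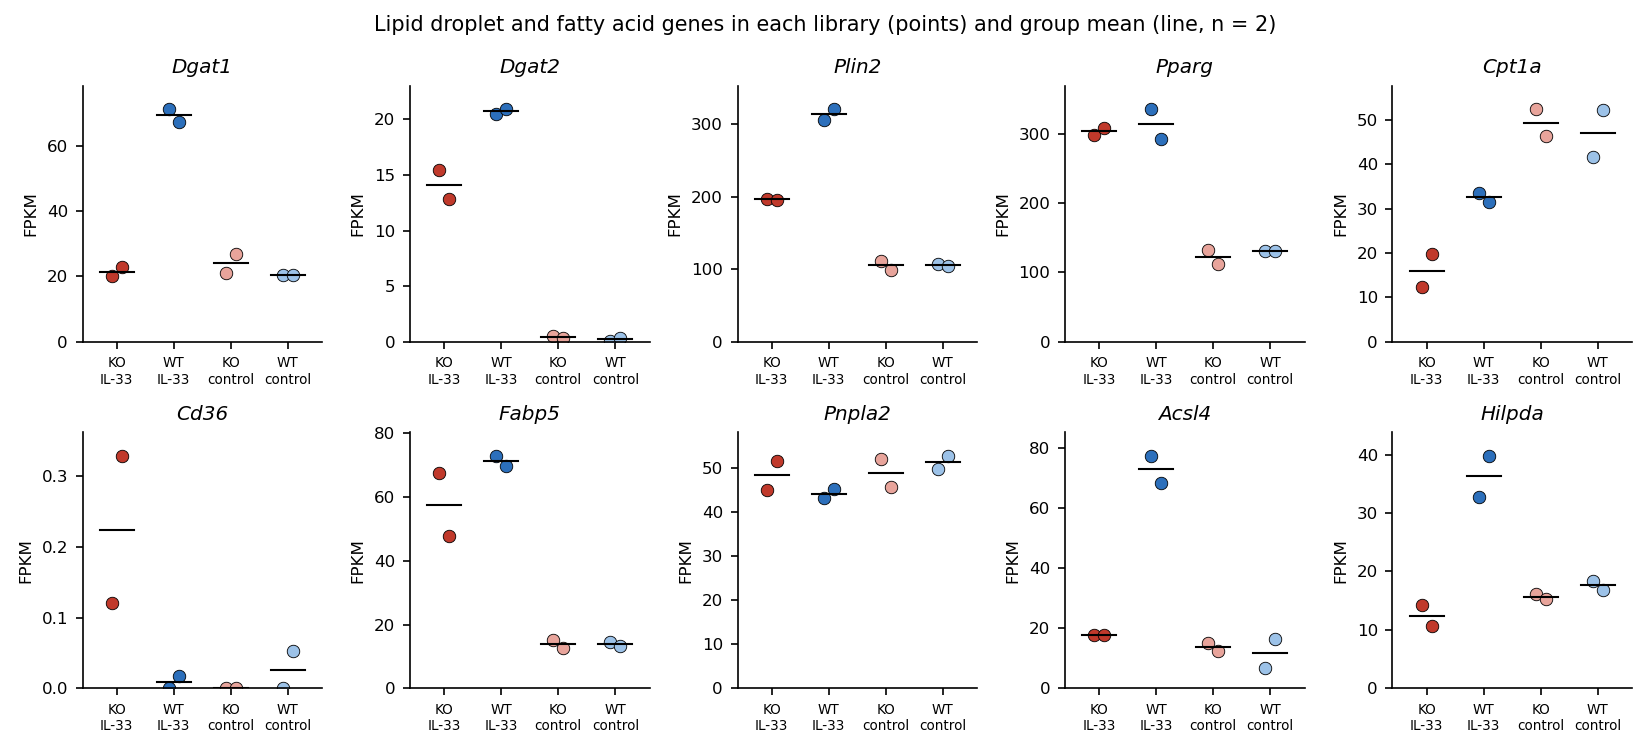
FPKM of each of the 10 genes (vertical axis, a scale of its own per gene) in the 8 libraries, with the 4 groups along the horizontal axis, points for libraries and lines for group means. Dgat1, Acsl4 and Hilpda are highest in the WT libraries with IL-33, Pparg and Fabp5 are high in all 4 IL-33 libraries, and Pnpla2 is at a similar level throughout.

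The first question was how IL-33 changed these genes within each genotype. In STAT3-KO cells Dgat2, Plin2, Pparg and Fabp5 rose and Cpt1a fell, while Dgat1, Acsl4 and Hilpda did not pass the test. In WT cells Dgat1, Dgat2, Plin2, Pparg, Fabp5, Acsl4 and Hilpda rose. Of the 9 tested genes, 4 were called higher and 1 lower in STAT3-KO, where 51.0% of all 11877 tested genes were called, 20.4% higher and 30.6% lower. In WT 7 were called higher and 0 lower, where 36.1% of all tested genes were called, 14.5% higher and 21.6% lower. The median difference of the 9 genes was 0.34 in STAT3-KO, against -0.18 for all tested genes, and 1.55 in WT, against -0.14 for all. A call means a Benjamini-Hochberg adjusted p under 0.05 in limma over all tested genes, and differences are those of log2(FPKM + 1) with their standard error (SE), a scale that understates changes of low genes. After rescaling of the libraries by the median of ratios the all-gene median was -0.01 in STAT3-KO and 0.00 in WT, and 5 and 7 of the 9 genes were called there. The calls over all genes were then 3140 higher and 2759 lower in STAT3-KO, against 2425 and 3638 without rescaling, and 2299 and 1863 in WT, against 1724 and 2561. The groups did not overlap for 7 of 9 genes in STAT3-KO and 9 of 9 in WT, where that held for 77.0% and 70.4% of all tested genes.

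The acyltransferases make triglyceride in the last step of its synthesis. Dgat1 (ENSMUSG00000022555; GRCm38 chr15:76502015-76511951) measured 20.0 and 22.8 FPKM in STAT3-KO with IL-33, 71.1 and 67.3 in WT with IL-33, 21.1 and 26.9 in STAT3-KO control, and 20.3 and 20.4 in WT control. Only the WT libraries with IL-33 stood apart, since the others lay between 20.0 and 26.9. The IL-33 difference was -0.15 ± 0.14 in STAT3-KO (adjusted p = 0.397, 95% interval -0.47 to 0.17) and 1.71 ± 0.14 in WT (adjusted p = 5.85e-05), a 3.40-fold ratio of the WT means. Dgat2 (ENSMUSG00000030747; chr7:99153658-99182719) measured 15.4 and 12.8 FPKM in STAT3-KO with IL-33, 20.5 and 20.9 in WT with IL-33, 0.521 and 0.364 in STAT3-KO control, and 0.116 and 0.328 in WT control. The control values rest on 27 and 18 reads in STAT3-KO and on 6 and 16 in WT, against at least 699 reads in each IL-33 library. The IL-33 difference was 3.38 ± 0.18 in STAT3-KO (adjusted p = 4.47e-06) and 4.16 ± 0.18 in WT (adjusted p = 3.02e-06). The FPKM of Dgat1 was 1.29 and 1.79 times that of Dgat2 in STAT3-KO with IL-33, 3.47 and 3.21 times in WT with IL-33, 40.5 and 73.8 times in STAT3-KO control, and 175.1 and 62.4 times in WT control. Dgat1 thus exceeded Dgat2 in every library, and by more in each control library than in any IL-33 library.

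Of the droplet proteins, Plin2 (ENSMUSG00000028494; chr4:86648386-86670060), which coats and protects droplets, measured 196.6 and 196.0 FPKM in STAT3-KO with IL-33, 306.1 and 320.3 in WT with IL-33, 111.4 and 99.2 in STAT3-KO control, and 107.6 and 105.1 in WT control. It was high with IL-33 in both genotypes, with the WT libraries above the STAT3-KO libraries, and the control libraries overlapped. It rose by 0.89 ± 0.09 in STAT3-KO (adjusted p = 0.000122) and by 1.55 ± 0.09 in WT (adjusted p = 1.22e-05). Hilpda (ENSMUSG00000043421; chr6:29272488-29275446), the hypoxia-inducible inhibitor of PNPLA2, measured 14.2 and 10.7 FPKM in STAT3-KO with IL-33, 32.8 and 39.8 in WT with IL-33, 16.1 and 15.2 in STAT3-KO control, and 18.4 and 16.9 in WT control. Both STAT3-KO libraries with IL-33 lay below all control libraries and both WT libraries with IL-33 above them. The difference was -0.32 ± 0.16 in STAT3-KO (adjusted p = 0.135) and 1.00 ± 0.16 in WT (adjusted p = 0.00221). Over the 8 fits that left out 1 library, the STAT3-KO difference ran from -0.51 to -0.13. It passed the threshold in 1 of them, without STAT3-KO IL-33 library 1, where it was -0.51.

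Pparg (ENSMUSG00000000440; chr6:115360951-115490399) measured 298.7 and 308.2 FPKM in STAT3-KO with IL-33, 335.1 and 292.5 in WT with IL-33, 132.4 and 111.7 in STAT3-KO control, and 131.5 and 130.7 in WT control. The IL-33 libraries of both genotypes overlapped and lay above all control libraries. It rose by 1.31 ± 0.11 in STAT3-KO (adjusted p = 4.23e-05) and by 1.25 ± 0.11 in WT (adjusted p = 8.91e-05). An antisense gene model, Gm44079, overlaps 13176 bases of the Pparg locus and reached 14.3 FPKM, and the strand of the counting is not given in the sources used here.

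Fabp5 (ENSMUSG00000027533; chr3:10012548-10016607), the cytosolic carrier, measured 67.4 and 47.6 FPKM in STAT3-KO with IL-33, 72.9 and 69.7 in WT with IL-33, 15.3 and 12.7 in STAT3-KO control, and 14.4 and 13.4 in WT control. Every IL-33 library exceeded every control library, and the STAT3-KO libraries with IL-33 were the more variable. It rose by 1.95 ± 0.17 in STAT3-KO (adjusted p = 5.29e-05) and by 2.28 ± 0.17 in WT (adjusted p = 3.76e-05). Its processed pseudogene Gm6166, identical over 98.3% of 409 aligned bases, reached 8.85 FPKM, so some of its reads may have been assigned to either gene. Acsl4 (ENSMUSG00000031278; chrX:142317993-142390535), the acyl-CoA synthetase that prefers arachidonic acid, measured 17.6 and 17.6 FPKM in STAT3-KO with IL-33, 77.3 and 68.2 in WT with IL-33, 15.1 and 12.4 in STAT3-KO control, and 6.79 and 16.5 in WT control. The WT libraries with IL-33 stood far above the others, the STAT3-KO libraries with IL-33 lay just above the highest control library, and the WT control libraries differed more from each other than those of any other group. The IL-33 difference was 0.34 ± 0.31 in STAT3-KO (adjusted p = 0.389, 95% interval -0.38 to 1.05) and 2.66 ± 0.31 in WT (adjusted p = 0.000408).

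Cd36 (ENSMUSG00000002944; chr5:17781690-17888801) was at the limit of detection. It had 7 and 21 reads (0.120 and 0.329 FPKM) in STAT3-KO with IL-33, 0 and 1 (0.0171 FPKM) in WT with IL-33, 0 and 0 in STAT3-KO control, and 0 and 3 (0.0527 FPKM) in WT control. The STAT3-KO libraries with IL-33 were therefore the highest, at 0.224 ± 0.148 FPKM. That mean is 4.41 times the 0.0509 FPKM that 3 reads per library would give in STAT3-KO control. It rests on 7 and 21 reads, so the ratio is not a lower bound. With the filter on low values removed, its IL-33 difference in STAT3-KO was 0.29 ± 0.09 and missed the threshold (adjusted p = 0.0539).

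On the side of fatty acid use, Pnpla2 (ENSMUSG00000025509; chr7:141455198-141460743) measured 45.0 and 51.7 FPKM in STAT3-KO with IL-33, 43.1 and 45.2 in WT with IL-33, 52.0 and 45.8 in STAT3-KO control, and 49.9 and 52.8 in WT control. Its 8 libraries lay between 43.1 and 52.8 FPKM. The IL-33 difference was -0.02 ± 0.12 in STAT3-KO (adjusted p = 0.911, 95% interval -0.29 to 0.25) and -0.21 ± 0.12 in WT (adjusted p = 0.188, 95% interval -0.48 to 0.06). Cpt1a (ENSMUSG00000024900; chr19:3323301-3385732), which controls the entry of long-chain fatty acids into mitochondria, measured 12.3 and 19.8 FPKM in STAT3-KO with IL-33, 33.6 and 31.6 in WT with IL-33, 52.4 and 46.3 in STAT3-KO control, and 41.6 and 52.3 in WT control. The order of the groups had no overlap among the IL-33 libraries or between them and the control libraries, whose genotypes overlapped. It fell by 1.60 on the log2 scale in STAT3-KO (SE 0.21, adjusted p = 0.000422), and its WT difference was -0.50 ± 0.21 (adjusted p = 0.0903). The WT difference passed when the WT libraries were fitted alone (adjusted p = 0.0497) or without STAT3-KO IL-33 library 1 or 2. It ran from -0.66 to -0.34 over the 8 fits that left out 1 library, of which only those 2 passed.

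**Figure D2:**
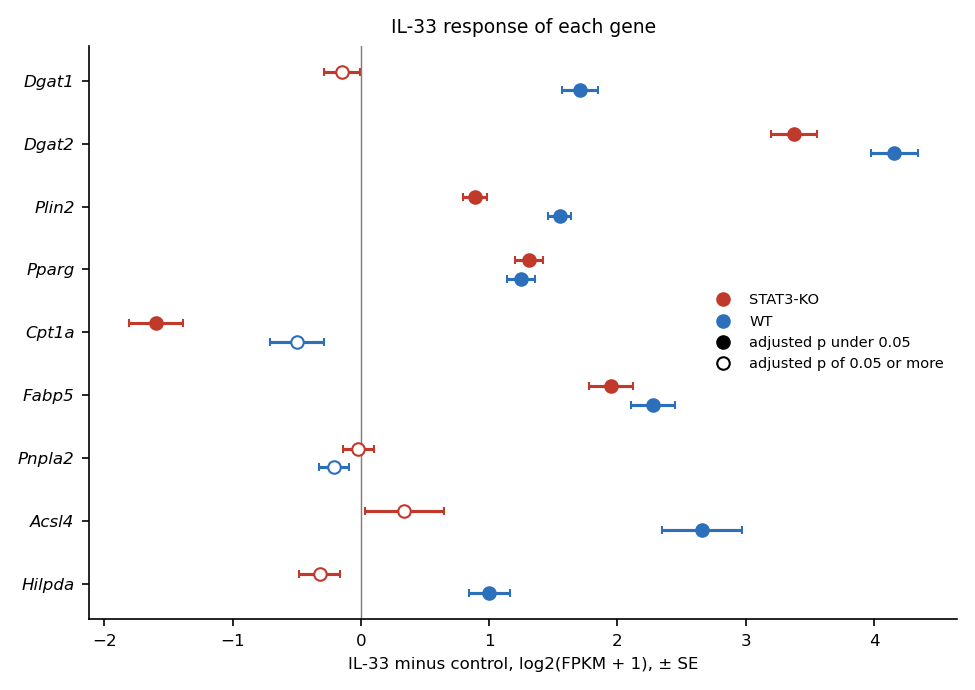
IL-33 response of the 9 tested genes (horizontal axis, IL-33 minus control on the scale of log2(FPKM + 1), ± SE from limma), STAT3-KO above WT for each gene. Filled points have an adjusted p under 0.05. Dgat1, Acsl4 and Hilpda are filled in WT only, with WT differences of 1.71, 2.66 and 1.00, and Cpt1a is filled in STAT3-KO only.

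The second question was whether the genotypes differed at rest and with IL-33. In control cells 0 of the 9 genes were called by limma, where 0.463% of all tested genes were, and 0 had an unadjusted p under 0.05 (lowest 0.163). The differences of STAT3-KO from WT in control ran from -0.16 ± 0.16 for Hilpda to 0.33 ± 0.31 for Acsl4. Their 95% intervals reached from -0.54 to 0.21 and from -0.38 to 1.05, and that of Acsl4 thus includes a rise of 1 log2 unit but not a fall of that size. The groups did not overlap for 3 of 9 genes, where 38.0% of all tested genes did not, and these were Dgat1, Dgat2 and Hilpda. With IL-33, Dgat1, Plin2, Cpt1a, Acsl4 and Hilpda were lower in STAT3-KO than in WT cells, and 0 of the 9 were called higher. Of all tested genes, 32.6% were called, 16.4% lower and 16.3% higher. The median difference of the 9 genes was -0.67, against 0.01 for all tested genes, and the groups did not overlap for 7 of 9, where 66.9% of all tested genes did not. The T cell, alveolar epithelial, mast cell and basophil, and ILC2 marker sums given above also differ between these groups. The T cell and alveolar epithelial sums differ mainly through Lck and Epcam. The part of these differences in the result was not tested.

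With IL-33, Acsl4 averaged 17.6 FPKM in STAT3-KO and 72.8 in WT cells, a difference of -1.99 ± 0.31 (adjusted p = 0.00202). Dgat1 averaged 21.4 FPKM in STAT3-KO and 69.2 in WT cells (-1.65 ± 0.14, adjusted p = 0.000103). Hilpda averaged 12.5 FPKM in STAT3-KO and 36.3 in WT cells (-1.48 ± 0.16, adjusted p = 0.000363). These 3 genes were at 0.242, 0.309 and 0.343 of their WT means, in that order. Cpt1a averaged 16.0 ± 5.32 FPKM in STAT3-KO and 32.6 ± 1.42 in WT cells (-1.02 ± 0.21, adjusted p = 0.00675), and without WT IL-33 library 1 its call was lost (-0.98, adjusted p = 0.0565). Plin2 averaged 196.3 FPKM in STAT3-KO and 313.2 in WT cells (-0.67 ± 0.09, adjusted p = 0.00111). The stored-lipid enzyme Dgat2 lay lower in both STAT3-KO libraries, with a difference of -0.53 ± 0.18 that missed the threshold (adjusted p = 0.0572). It passed in 2 of the 8 fits that left out 1 library, those without WT control library 1 or 2. Over the 8 fits the difference of Dgat2 ran from -0.66 to -0.40. Fabp5 differed by -0.33 ± 0.17 (adjusted p = 0.181). Over the 8 fits that left out 1 library its difference ran from -0.57 to -0.08. It passed in 1 of them, without STAT3-KO IL-33 library 1, where it was -0.57. Pparg (-0.05 ± 0.11, adjusted p = 0.793, 95% interval -0.30 to 0.21) and Pnpla2 (0.12 ± 0.12, adjusted p = 0.465, 95% interval -0.14 to 0.39) had overlapping libraries.

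**Figure D3:**
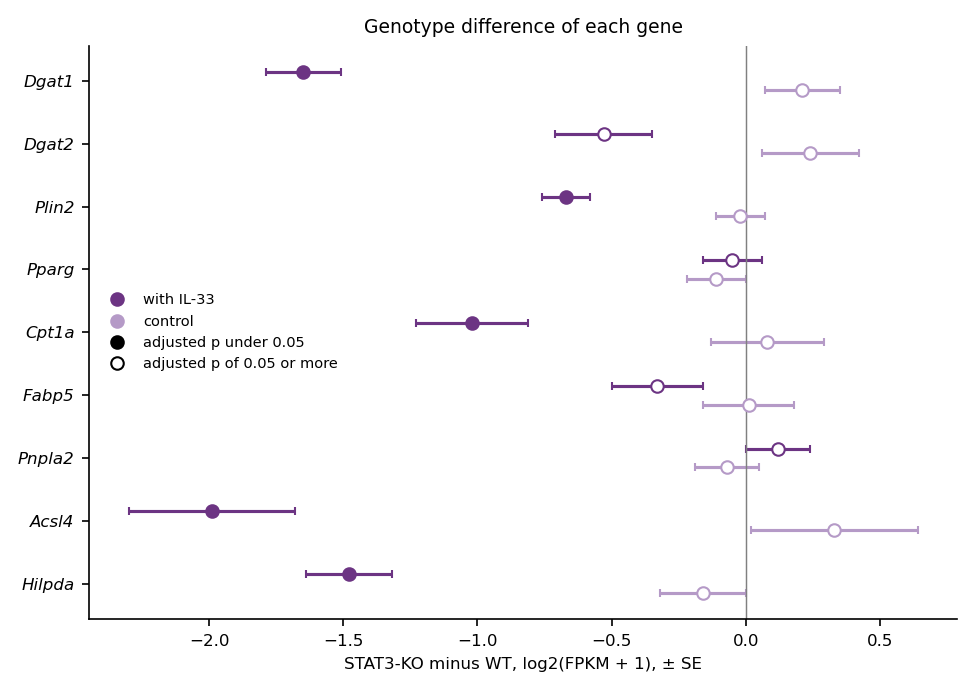
Difference between the genotypes for the 9 tested genes (horizontal axis, STAT3-KO minus WT on the scale of log2(FPKM + 1), ± SE from limma), with IL-33 (dark) above control (pale). Filled points have an adjusted p under 0.05. The 5 filled points, all with IL-33, lie between -1.99 and -0.67, and the control points lie between -0.16 and 0.33.

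The test of the difference between the IL-33 responses, STAT3-KO minus WT, draws on the same 8 libraries. It called 5 of the 9 genes lower and 0 higher, where 15.1% of all tested genes were called and 8.43% lower and 6.72% higher. The response of Dgat1 differed by -1.86 ± 0.20 (adjusted p = 0.00119) and that of Hilpda by -1.31 ± 0.23 (adjusted p = 0.00867). The response of Acsl4 differed by -2.32 ± 0.44 (adjusted p = 0.0119), and without WT IL-33 library 1 or 2 the adjusted p was 0.0640 or 0.0558. The response of Plin2 differed by -0.66 ± 0.13 (adjusted p = 0.0140), and the adjusted p was 0.0642 without STAT3-KO control library 1 and 0.0568 without WT IL-33 library 2. That of Cpt1a differed by -1.10 ± 0.29 (adjusted p = 0.0403), a call lost in 6 of the 8 fits that left out 1 library. Dgat2 differed by -0.77 ± 0.26 (adjusted p = 0.0802), and the intervals for Pparg (-0.30 to 0.42), Fabp5 (-0.89 to 0.22) and Pnpla2 (-0.18 to 0.57) included 0. Plin2 thus rose less with IL-33 in STAT3-KO cells than in WT cells, and the WT rises of Dgat1, Acsl4 and Hilpda were not detected there.

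The pathways these genes belong to are given from 8 lists, which include the members. In the comparison of the genotypes with IL-33, 16.3% of all tested genes were called higher and 16.4% lower. Among 15 tested droplet proteins, 3 were called higher (Bscl2, Tmem159 and Mettl7a1) and 3 lower (Soat1 and the members Hilpda and Plin2) in STAT3-KO than in WT cells with IL-33. The list's median was 0.11, against 0.01 for all tested genes. Bscl2, or seipin, which shapes nascent droplets, measured 33.1 and 31.7 FPKM in STAT3-KO with IL-33, 16.1 and 16.7 in WT with IL-33, 18.6 in each STAT3-KO control library, and 19.6 and 17.9 in WT control, so that the STAT3-KO libraries with IL-33 stood apart. Its genotype difference with IL-33 was 0.94 ± 0.11 (adjusted p = 0.000621). Tmem159, the seipin partner promethin, averaged 66.9 FPKM in STAT3-KO and 42.6 in WT with IL-33 (0.64 ± 0.11, adjusted p = 0.0027). Mettl7a1 had the same difference (0.64 ± 0.15, adjusted p = 0.0113), and its call was lost without library 2 of STAT3-KO with IL-33 or library 2 of WT with IL-33. Soat1, which esterifies cholesterol for storage, measured 2.61 and 3.89 FPKM in STAT3-KO with IL-33, 14.8 and 15.5 in WT with IL-33, 5.41 and 7.68 in STAT3-KO control, and 6.62 and 8.43 in WT control (with IL-33 -1.94 ± 0.22, adjusted p = 0.000406). Plin3, the other abundant perilipin, averaged 119.4 FPKM in STAT3-KO and 111.0 in WT with IL-33 and was not called, and Plin1, Plin4 and Plin5 were below the filter.

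Among 12 tested triglyceride synthesis genes, 1 was called higher (Agpat4) and 1 lower (Dgat1) in STAT3-KO than in WT cells with IL-33, with a list median of 0.00 against 0.01 for all tested genes. Agpat4, an acyltransferase that makes phosphatidic acid, measured 101.5 and 107.0 FPKM in STAT3-KO with IL-33, 58.2 and 66.8 in WT with IL-33, 12.5 and 9.88 in STAT3-KO control, and 13.8 and 13.9 in WT control. It rose with IL-33 by 3.12 ± 0.14 in STAT3-KO (adjusted p = 1.66e-06) and by 2.09 ± 0.14 in WT (adjusted p = 1.84e-05), and the difference between the responses was 1.02 ± 0.19 (adjusted p = 0.0111), lost in 1 of the 8 fits without a library. Among 10 tested genes of lipolysis, 2 were called higher (Mgll and Lipe) and 0 lower, with a median of 0.21. Lipe, the hormone-sensitive lipase, measured 32.4 and 34.2 FPKM in STAT3-KO with IL-33, 8.56 and 11 in WT with IL-33, 10.7 and 11.8 in STAT3-KO control, and 7.46 and 8.73 in WT control (with IL-33 1.68 ± 0.16, adjusted p = 0.000163). Mgll, which cleaves monoacylglycerol, measured 27.1 and 21.7 FPKM in STAT3-KO with IL-33, 4.70 and 6.33 in WT with IL-33, 11.1 and 10.5 in STAT3-KO control, and 6.36 and 7.06 in WT control (with IL-33 1.97 ± 0.18, adjusted p = 0.000135). These lipases, which act after PNPLA2, stood highest in STAT3-KO cells with IL-33, where Pnpla2 measured 45.0 and 51.7 FPKM.

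Among 8 tested genes of uptake and binding, 4 were called higher and 1 lower with IL-33 in STAT3-KO. In WT 5 were called higher and 0 lower. Of all tested genes, 20.4% were called higher and 30.6% lower in STAT3-KO, and 14.5% higher and 21.6% lower in WT. The higher count in WT was 3 with a pseudocount of 0.1, no filter or a mean of at least 5 FPKM. It was 2 with the WT libraries fitted alone. The lower count in STAT3-KO was 0 without STAT3-KO IL-33 library 1 or 2 or STAT3-KO control library 2. The higher count in WT was 2 without WT control library 1 or WT IL-33 library 2, and 3 without WT IL-33 library 1 or either STAT3-KO control library. With IL-33, 1 was called higher (Got2) and 1 lower (Slc27a1, a fatty acid transporter, with a difference of -0.88) in STAT3-KO than in WT cells, with a median of -0.33. The call of Slc27a1 was lost without WT IL-33 library 2. Dbi, the acyl-CoA binding protein, rose with IL-33 by 1.5 ± 0.19 in STAT3-KO (adjusted p = 0.000333) and by 1.78 ± 0.19 in WT (adjusted p = 0.000222). Among 8 tested acyl-CoA synthetases, 1 was called higher (Acss2) and 3 lower (Acsl4, Acss1 and Acsbg1) in STAT3-KO than in WT cells with IL-33, with a median of -0.19. The call of Acsbg1 was lost in 7 of the 8 fits without a library. Acss2, which activates acetate in the cytosol, measured 21.9 and 23.4 FPKM in STAT3-KO with IL-33, 1.73 and 2.30 in WT with IL-33, 5.93 and 5.54 in STAT3-KO control, and 3.07 and 3.47 in WT control (with IL-33 2.98 ± 0.17, adjusted p = 1.79e-05). Acss1, its mitochondrial counterpart, fell with IL-33 in both genotypes, with differences of -3.86 ± 0.21 in STAT3-KO (adjusted p = 4.09e-06) and -3.05 ± 0.21 in WT (adjusted p = 2.27e-05), to 0.282 and 0 FPKM in STAT3-KO and 1.75 and 1.74 in WT.

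Among 23 tested genes of mitochondrial fatty acid oxidation, 13 were called higher and 1, Cpt1a, lower in STAT3-KO than in WT cells with IL-33. The list's median was 0.50, against 0.01 for all tested genes, of which 16.3% were called higher. The count of higher genes was 6 without WT IL-33 library 1, 4 without WT IL-33 library 2, and 7 without STAT3-KO IL-33 library 2. Without WT IL-33 library 1 the call of Cpt1a was lost as well. Etfa, a subunit of the flavoprotein that takes electrons from acyl-CoA dehydrogenases, measured 154.6 and 147.1 FPKM in STAT3-KO with IL-33 and 90.1 and 89.6 in WT with IL-33, above 77.7 and 71.4 in STAT3-KO control and 78.1 and 70.6 in WT control (with IL-33 0.74 ± 0.10, adjusted p = 0.000961). Acadvl, the very-long-chain acyl-CoA dehydrogenase, averaged 58.9 FPKM in STAT3-KO and 28.2 in WT cells with IL-33 and was called, with a difference of 1.04. Hadha and Hadhb, the subunits of the trifunctional protein, were called with differences of 0.50 and 0.59. Cpt1a thus moved against most called genes of its list. In control cells 0 of the 23 were called by limma, and 0 had an unadjusted p under 0.05. The test of the difference between the IL-33 responses called only 3 of the 23 higher and 1 lower. Of all tested genes it called 6.72% higher and 8.43% lower. The list's median in that test was 0.47, against -0.02 for all tested genes.

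Of 10 tested PPAR receptors and partners, 1 was called higher (Rxra) and 0 lower in STAT3-KO than in WT cells with IL-33, with a median of -0.11. Rxra, a receptor that pairs with PPARs on DNA, measured 13.7 and 16.9 FPKM in STAT3-KO with IL-33, 0.727 and 0.799 in WT with IL-33, 2.30 and 2.45 in STAT3-KO control, and 2.80 and 2.84 in WT control. It rose with IL-33 by 2.27 ± 0.18 in STAT3-KO (adjusted p = 2.92e-05) and fell by 1.12 in WT (SE 0.18, adjusted p = 0.00196), and with IL-33 the genotypes differed by 3.20 ± 0.18 (adjusted p = 1.79e-05). Pparg and Rxra were thus both present with IL-33 in STAT3-KO cells, while Rxra was below 1 FPKM in WT cells with IL-33. Rxrb, another RXR gene of this list, averaged 5.29 FPKM in STAT3-KO and 4.8 in WT cells with IL-33. Its difference of 0.11 was not called, so an RXR transcript was present in both genotypes. Of 13 tested PPAR target genes, 2 were called higher (Txnip and Acadm) and 5 lower (Fads2, Hilpda, Cpt1a, Plin2 and Ucp2), with a median of -0.30. The lower count was 3 without WT IL-33 library 1, where Cpt1a and Ucp2 lost their calls. The higher count was 1 without either library of STAT3-KO with IL-33 or library 2 of WT with IL-33. Fads2, the Δ6 fatty acid desaturase, measured 2.03 and 2.61 FPKM in STAT3-KO with IL-33, 10.4 and 16.5 in WT with IL-33, 0.118 and 0.0827 in STAT3-KO control, and 0.632 and 0.460 in WT control (with IL-33 -2.09 ± 0.24, adjusted p = 0.000478). This list holds 4 of the 9 tested members, so its count is not separate from theirs.

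**Figure D4:**
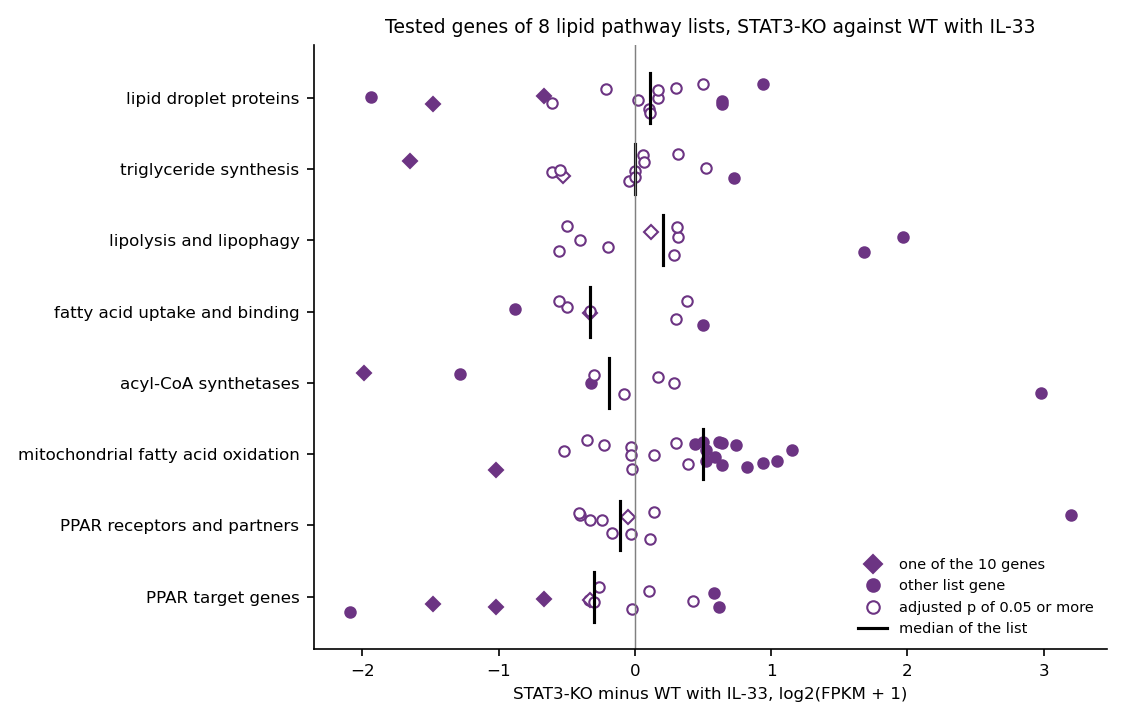
Difference between STAT3-KO and WT cells with IL-33 (horizontal axis, log2(FPKM + 1)) for each tested gene of 8 lipid pathway lists (rows). Diamonds are genes of the 10, circles other genes, filled symbols have an adjusted p under 0.05, and black lines are list medians, which are 0.50 for mitochondrial fatty acid oxidation and between -0.33 and 0.21 for the other lists.

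**Figure D5:**
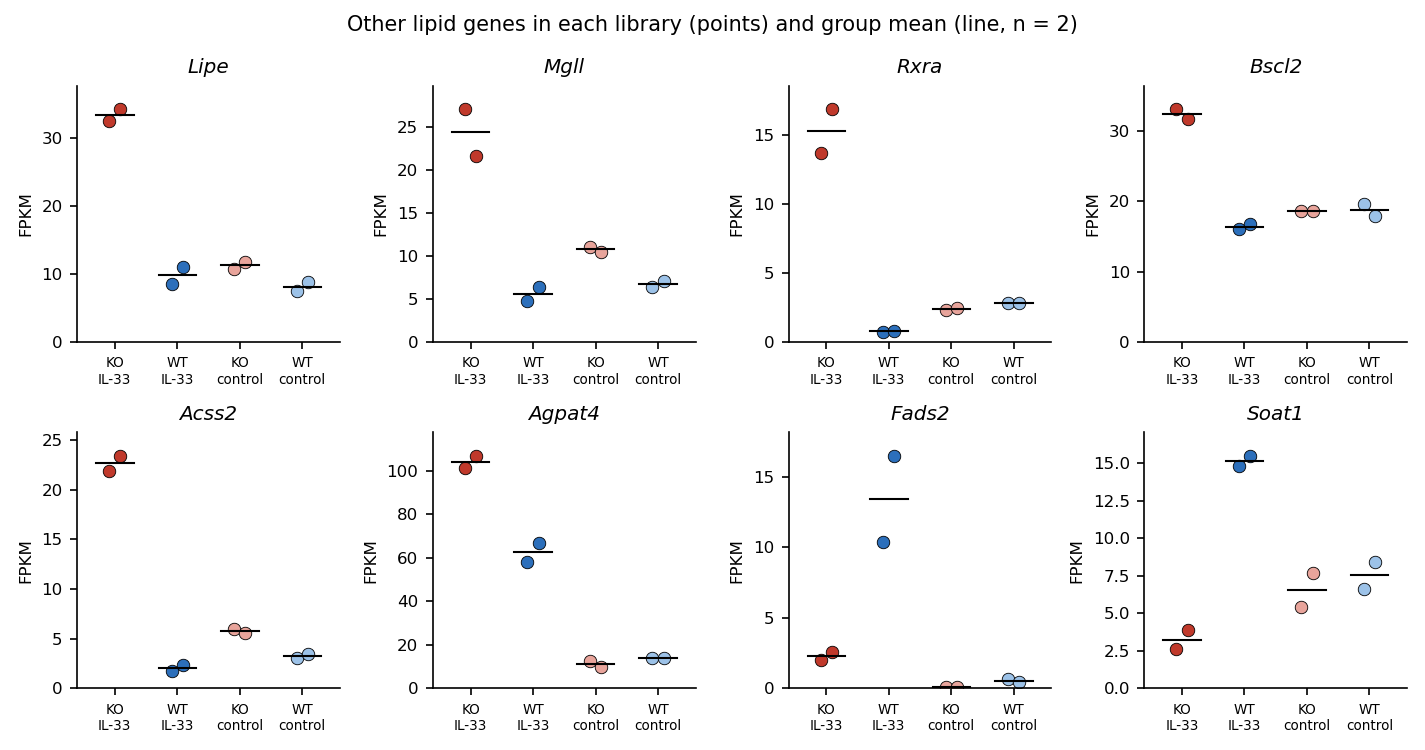
FPKM (vertical axis, a scale of its own per gene) of 8 other lipid genes in the 8 libraries, with points for libraries and lines for group means. Lipe, Mgll, Rxra, Bscl2 and Acss2 stand highest in STAT3-KO cells with IL-33, Agpat4 is high with IL-33 in both genotypes, and Fads2 and Soat1 stand highest in the WT libraries with IL-33.

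Genes most like each member were taken by Pearson's r of log2(FPKM + 1) over the 8 libraries among 6873 candidates, as a description across libraries that share 4 groups. For Dgat1 these were Dgkz, a diacylglycerol kinase (r = 0.989), and Pigx (r = 0.986), and for Acsl4 they were the fatty acid desaturase Scd2 (r = 0.998) and Knop1 (r = 0.982). For Plin2 they were Il2rb, a subunit of the IL-2 receptor (r = 0.997), and Got1 (r = 0.995), and for Dgat2 they were Tnfrsf8, which encodes CD30 (r = 0.998), and Tubb6 (r = 0.998). For Hilpda they were H2afz (r = 0.989) and Cdkn2d (r = 0.986), for Pparg Arl14ep (r = 0.997) and Ugp2 (r = 0.996), and for Fabp5 Pdia6 and Anxa2 (r = 0.996 each). For Cpt1a they were Mynn and Arhgap30 (r = 0.996 each). Pnpla2, the gene that varied least, had the lowest likeness, to Qpct (r = 0.913) and Gnl1 (r = 0.907).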

How the data were processed

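RNA of cultured mouse lung ILC2s was measured in 8 libraries, 2 in each of 4 groups taken from the labels. The authors deposited FPKM values per gene, made with Bowtie2 and RSEM on GRCm38 per the submitters' processing notes. Versions, annotation release, filters and strand setting are not given in the sources used here. FPKM was multiplied by the merged exon length of GENCODE M21, known for 22041 of 22075 genes. This gave whole reads within 0.02 for 93.4% to 94.6% of values of up to 100 reads, and from that the depth. How the named tools led to such whole reads, and so how reads were counted, is not clear.

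Values were tested as log2(FPKM + 1) for the 11877 genes with at least 1 FPKM in at least 2 libraries, with limma 3.58.1 in R 4.3.3 (1 mean per group over all 8 libraries, eBayes with a trend), two-sided. P values were adjusted by Benjamini-Hochberg within each comparison and called under 0.05. The procedure was also run on simulated data, with far fewer changed genes than were called here for IL-33. No result above rests on that run. Libraries with the same replicate number showed no shared deviation over the tested genes (correlation of deviations -0.06 to 0.04). That cannot show whether they shared a mouse, culture or day. Alternatives changed the pseudocount (0.1 and 0.5), filter, scaling, prior variance, samples fitted and replicate block, and left out each library. Removal of a trend with gene length was added after the values were seen.

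The 10 genes, the 8 pathway lists and the marker lists were chosen with earlier results of these data known. From each list, up to 4 called genes with the smallest adjusted p and a group mean of at least 5 FPKM were followed in every comparison, and other list genes named were chosen after their values were seen. Of the genes of these lists, 1 is not reported here, and the counts leave it out. Near copies were sought by aligning transcripts. Tables and figures used Python 3.11.15, pandas 2.3.3 and matplotlib 3.10.9.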

Additional observations from a re-analysis of the deposited data

Results flagged for a closer look

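Of the members, 5 are listed because their IL-33 responses differed between the genotypes, as tested by limma on STAT3-KO minus WT. The values on the scale of log2(FPKM + 1) were -1.86 for Dgat1, -0.66 for Plin2, -1.10 for Cpt1a, -2.32 for Acsl4 and -1.31 for Hilpda.

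Among the other lipid genes named by the rule, the response in STAT3-KO exceeded that in WT by 3.38 for Rxra, 2.32 for Acss2, 1.35 for Mgll, 1.25 for Lipe, 1.02 for Agpat4, 0.95 for Bscl2, 0.74 for Etfa, 0.72 for Tmem159, 0.71 for Eci2 and 0.60 for Got2. Rxra and Acss2 were called higher with IL-33 in STAT3-KO and lower in WT, although the fall of Acss2 in WT (-0.51) missed the threshold in all 8 fits that left out 1 library. The difference was -1.76 for Soat1, -1.60 for Fads2 and -0.86 for Ncoa2. Soat1 was also called in opposite directions, lower with IL-33 in STAT3-KO and higher in WT, and these calls were lost in 2 and 3 of the 8 fits without a library. The difference for Stat3 itself was -0.94. Among these calls of a difference, those of Eci2 and Ncoa2 were lost in 7 of the 8 fits without a library, those of Cpt1a, Got2 and Stat3 in 6, that of Tmem159 in 5 and that of Fads2 in 4. Those of Plin2 and Acsl4 were lost in 2, those of Agpat4, Etfa and Soat1 in 1, and the others in 0.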

How the results depend on the processing

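Leaving out 1 library at a time, the number of the 9 genes called was 5 to 6 for IL-33 in STAT3-KO, 7 to 8 for IL-33 in WT, 0 for the genotypes in control, 4 to 6 for the genotypes with IL-33, and 2 to 5 for the difference of responses. That last count was 5 as reported and 3 with no filter on low values or without the trend of the prior variance. With the replicate block the counts were 5, 7, 0, 5 and 5 in that order, and the block changed no call of a member. Calls of members held in direction under all alternatives tried, and those that crossed the threshold on leaving out a library stand in the report. The other crossings were those of Plin2 (adjusted p = 0.0616 with no trend) and Acsl4 (0.0551 with no filter) in the difference of responses and Dgat2 between genotypes with IL-33 (0.0434 with no trend). With the length trend removed, Hilpda fell in STAT3-KO (-0.44, adjusted p = 0.0322) and Dgat2 was lower in STAT3-KO with IL-33 (-0.66, adjusted p = 0.0245) and in its response (-0.92, adjusted p = 0.0455). The call of Cpt1a in the difference of responses was lost in 9 settings (adjusted p = 0.0529 to 0.131). The cause was not tested.

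Over all genes, leaving out 1 library gave 4238 to 6220 calls (6063 as reported) for IL-33 in STAT3-KO, 2550 to 4301 (4285) for IL-33 in WT, 1 to 35 (55) for the genotypes in control, 2117 to 4013 (3876) for the genotypes with IL-33 and 764 to 1993 (1799) for the difference of responses. A mean of at least 5 FPKM gave 3803 for IL-33 in STAT3-KO, with fewer genes tested. In control, a pseudocount of 0.1 gave 34 and the control libraries alone gave 0, with fewer samples. No filter gave 1149 for the difference of responses. Median-of-ratios scaling gave 3140 higher and 2759 lower calls in STAT3-KO, with 2425 and 3638 as reported, and 2299 and 1863 in WT, with 1724 and 2561 as reported. Of the counts of the pathway lists under alternatives, 160 moved and 1184 did not. A move is a change by over 1.5 times, or any change to or from 0. Depth limits Cd36, at no more than 21 reads, and Dgat2 in control, at no more than 27 reads.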

Other observations

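Several lipid genes outside the 10 fell with IL-33 in both genotypes. Txnip, a brake on glucose uptake, averaged 128.2 ± 7.40 FPKM in STAT3-KO and 85.7 ± 13.9 in WT with IL-33, and 323.9 ± 3.66 in STAT3-KO control and 273.5 ± 4.21 in WT control (SD, n = 2). Its IL-33 difference was -1.33 ± 0.12 in STAT3-KO (limma, adjusted p = 5.33e-05) and -1.67 ± 0.12 in WT (adjusted p = 2.79e-05). Acaa2, the thiolase of mitochondrial oxidation, differed by -1.18 ± 0.12 in STAT3-KO (adjusted p = 9.55e-05) and -0.99 ± 0.12 in WT (adjusted p = 0.000406). Decr1, which handles unsaturated fatty acids, differed by -1.05 ± 0.13 in STAT3-KO (adjusted p = 0.0003) and -1.44 ± 0.13 in WT (adjusted p = 8.91e-05). Ncor1, a corepressor of nuclear receptors, differed by -1.73 ± 0.16 in STAT3-KO (adjusted p = 7.52e-05) and -1.15 ± 0.16 in WT (adjusted p = 0.0011). The cholesterol exporter Abcg1 rose in both genotypes, by 0.61 ± 0.12 in STAT3-KO (adjusted p = 0.00296) and 0.87 ± 0.12 in WT (adjusted p = 0.000793).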
